A study of Homo sapiens with 6 samples.

Results

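SR proteins and heterogeneous nuclear ribonucleoproteins (hnRNPs) are the abundant RNA-binding proteins that decide which exons of a pre-mRNA are kept. The genes described here are those named Srsf with a number or Hnrnp with a letter code in the deposited tables, without rows named as pseudogenes (-ps). They came to 31 of 53492 genes, 11 of the SR family and 20 of the hnRNP family, and were compared between 3 libraries of cells transfected with pCS2-eGFP-CCNB1IP1, called GFP-CCNB1IP1 here, and 3 libraries of cells transfected with pCS2-eGFP-N, called GFP. Both groups thus carried an enhanced GFP (green fluorescent protein) vector, and CCNB1IP1, an E3 ubiquitin ligase that binds cyclin B1, was fused to GFP in the GFP-CCNB1IP1 vector. SH-SY5Y, a neuroblastoma line of human origin, is the labelled cell type. The time after transfection, the share of cells that took up a vector and the origin of the replicates are not in the labels, so the spread behind each p-value is that of these samples and may be technical.

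An SR protein binds RNA through its RNA recognition motifs and recruits the splicing machinery through a tail rich in arginine and serine. That tail is phosphorylated by the SRPK and CLK kinases. hnRNPs coat nascent transcripts, and many of them block splice sites or exons, so that the balance of the families at an exon helps to set its inclusion. Many genes of both families limit their own level by splicing in an exon that exposes the transcript to nonsense-mediated decay, and neurons change the balance through tissue-restricted members.

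The tables carry mouse gene identifiers for all 53492 genes, and 0 of them were found among the 62700 of a human gene table, so every value is that of a mouse gene in libraries labelled as a human line. The genome build is not given in the sources used here, and positions are those of the tables. Mouse Ccnb1ip1 averaged 0.108 FPKM in the GFP-CCNB1IP1 libraries and 0.0762 FPKM in the GFP libraries. The groups overlapped, and the deposited intervals imply at most 1.03 fragments of it in any library. The introduced sequence was not analysed here, so the labels were not checked by it. Of 10 markers of noradrenergic neuroblastoma, 7 averaged at least 1 FPKM, led by Gata2, Hand2 and Phox2a. Th averaged 2.47 FPKM, Dbh and Ddc were under 1 FPKM, and Slc6a2 was listed at 0. Of 14 markers of fibroblasts, leukocytes and epithelia only Pdgfrb reached a mean of 1 FPKM. FPKM are fragments scaled by transcript length and library size. The tables hold no totals, and depths estimated from the deposited intervals ran from 0.739, in GFP-CCNB1IP1 replicate 2, to 1.06 of the GFP mean.

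None of the SR and hnRNP genes passed the test of GFP-CCNB1IP1 against GFP. Of the 30 members with a mean of at least 1 FPKM, 0 had an adjusted p under 0.05 (limma on log2(FPKM + 1), adjusted over 13231 genes), where 0.00756% of all genes passed. Without adjustment, 2 members had a limma p under 0.05, Srsf2 lower and Hnrnph2 higher, where 11.4% of all genes did. The same 2 genes were the only tested members whose groups did not overlap, where 17.6% of all genes had groups apart. In both counts the members' share, 2 of 30, is smaller than that of all genes. In the lower direction alone, each count holds 1 of the 30 members, Srsf2. Among the 3631 genes within the members' range of mean FPKM, 6.69% had an unadjusted p under 0.05 and were lower, and 9.83% lay apart and lower.

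The intervals show what sizes of change these libraries leave room for. For all 30 tested members the 95% interval of the fold change, taken gene by gene, lay inside 1.5-fold in either direction. The lowest bound was -0.42 on the log2 scale, for Srsf3, and the highest was 0.28, for Hnrnph2. Smaller changes were not excluded by these intervals.

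**Figure D1:**
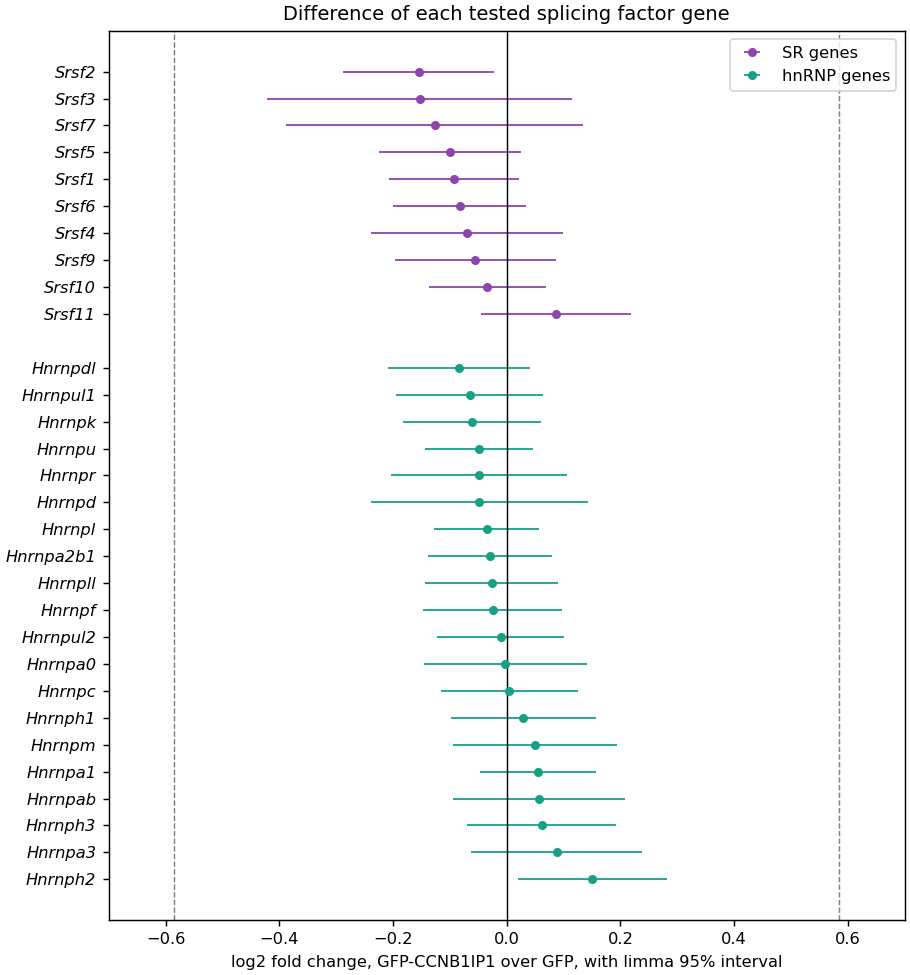
Log2 fold change on the log2(FPKM + 1) scale, GFP-CCNB1IP1 over GFP, of the 10 tested SR genes (top) and the 20 tested hnRNP genes (below), with limma 95% intervals as bars; dashed lines mark 1.5-fold in either direction. All intervals lie inside the dashed lines, and those of Srsf2 and Hnrnph2 leave out 0.

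The SR family was led by Srsf2, Srsf11, Srsf1 and Srsf5, whose means over the 6 libraries ran from 124 to 97.0 FPKM. Its members spanned a wide range: 10 of 11 lay at 28.8 FPKM or above, and the other, Srsf12, averaged 0.619 FPKM. The summed level of the family was 718.0, 737 and 716 FPKM in the GFP-CCNB1IP1 libraries, against 795, 718.0 and 775 FPKM in the GFP libraries. The groups overlapped, because GFP replicate 2 lay among the GFP-CCNB1IP1 libraries.

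Taken gene by gene, 9 of the 10 tested SR members had a negative log2 fold change, where 48.6% of all genes tested did (46.0% of genes in the members' range of FPKM), and the exception was Srsf11. The median of the family was -0.088, beside 0.0037 over all genes tested. The members share libraries and 0 of them passed, so this count describes these 6 libraries. Leaving out GFP replicate 2 gave a median of -0.13, and leaving out GFP replicate 3 gave -0.056. Genes of dividing cells differed in the same direction: the summed level of Mki67, Top2a, Ccnb1, Cdk1, Tk1 and Mcm5 was 214 to 243 FPKM in the GFP-CCNB1IP1 libraries, against 254 to 315 FPKM in the GFP libraries, with a lower mean for all 6 genes and 0 passing (limma, adjusted p from 0.176 to 0.560). The groups lay apart and lower for Mki67, Ccnb1, Tk1 and Mcm5, where 8.90% of all genes did, and overlapped for Top2a and Cdk1. The part of these 6 genes in the SR levels was not tested. In bulk RNA, fewer cells that express a gene and less RNA per cell cannot be told apart.

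**Figure D2:**
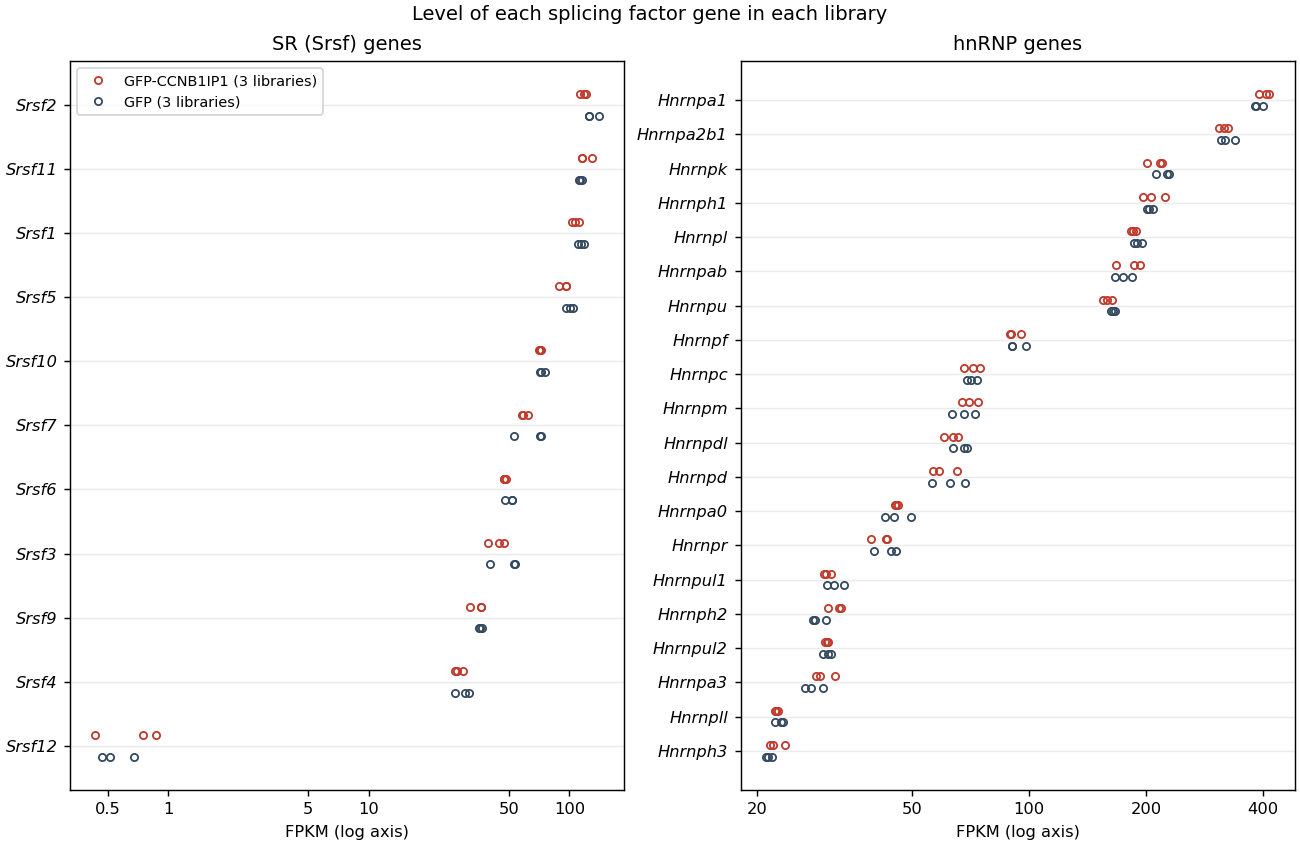
FPKM on a log axis for each SR gene (left) and each hnRNP gene (right), ordered by mean level, with 1 point for each of the 3 GFP-CCNB1IP1 libraries (upper points of each gene) and of the 3 GFP libraries (lower points). The groups lie apart for Srsf2 and Hnrnph2, the GFP points of Srsf7 and Srsf3 are spread out, and Srsf12 lies between 0.434 and 0.871 FPKM.

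Srsf2 (ENSMUSG00000034120.19, chromosome 11, 116740727 to 116743920) encodes an SR protein that activates splicing from exonic enhancers, and whose overproduction is held back through decay of its own transcript. It had 118, 112 and 121 FPKM in the GFP-CCNB1IP1 libraries, against 140.3, 126 and 126 FPKM in the GFP libraries. All 3 GFP-CCNB1IP1 libraries lay below all 3 GFP libraries. The means were 117 ± 4.16 and 131 ± 8.39 FPKM (SD, n = 3 each), a log2 fold change of -0.16 in limma (SE 0.0573, adjusted p = 0.375), with a 95% interval from -0.29 to -0.022. Its whole locus lies within that of Mettl23, which averaged 14.8 FPKM, and it also overlaps Mfsd11, at 17.2 FPKM. Strand was not stated, so reads of these genes may not be separable. Without GFP replicate 1, its highest library, the log2 fold change of Srsf2 was -0.10 (limma, adjusted p = 0.589).

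Srsf7 and Srsf3 encode the small SR proteins that also act as adaptors for mRNA export, and they varied most between replicates. Srsf7 (ENSMUSG00000024097.12, chromosome 17, 80507509 to 80514736) had 57.8, 58.8 and 62.1 FPKM in the GFP-CCNB1IP1 libraries, against 71.6, 53.2 and 72.4 FPKM in the GFP libraries. Srsf3 (ENSMUSG00000071172.14, chromosome 17, 29251602 to 29262347) had 39.5, 44.4 and 47.2 FPKM in the GFP-CCNB1IP1 libraries, against 53.3, 40.3 and 53.2 FPKM in the GFP libraries. In the GFP group, replicates 1 and 3 were high for both genes, above every GFP-CCNB1IP1 library, and replicate 2 was low. The coefficient of variation over the GFP libraries was 16.6% for Srsf7 and 15.3% for Srsf3, the highest of the tested members, against 3.76% and 8.93% over the GFP-CCNB1IP1 libraries. The ratio of Srsf7 to Srsf3 stayed between 1.32 and 1.47 in all 6 libraries.

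Both genes missed the test, with an adjusted p = 0.713 for Srsf7 and 0.663 for Srsf3 in limma. Their log2 fold changes of -0.13 (SE 0.113) and -0.15 (SE 0.116) moved with single libraries. Without GFP replicate 2 they were -0.27 for Srsf7 (limma, adjusted p = 0.206) and -0.28 for Srsf3 (limma, adjusted p = 0.276). Without GFP replicate 1 they were -0.059 and -0.087, and without GFP replicate 3 they were -0.051 and -0.088. Srsf3 was at -0.084 without GFP-CCNB1IP1 replicate 1. Of the genes of dividing cells, the topoisomerase gene Top2a had 44.8, 49.8 and 56.5 FPKM in the GFP-CCNB1IP1 libraries, against 71.5, 45.9 and 71.5 FPKM in the GFP libraries. GFP replicate 2 was thus the low GFP library for Top2a as for Srsf7 and Srsf3, and its part in their levels was not tested. That library was also the lowest of the GFP group for Ccnb1, Cdk1, Tk1 and Mcm5, but not for Mki67. The coefficient of variation over the GFP libraries was 23.5% for Top2a, 14.4% for Ccnb1 and 12.1% for Cdk1. For Tk1, Mki67 and Mcm5 it was 4.55, 2.25 and 1.38%. A row named as a pseudogene of Srsf3, Srsf3-ps, was at 2.79 to 3.64 FPKM, and how reads were divided between it and Srsf3 is not known.

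**Figure D3:**
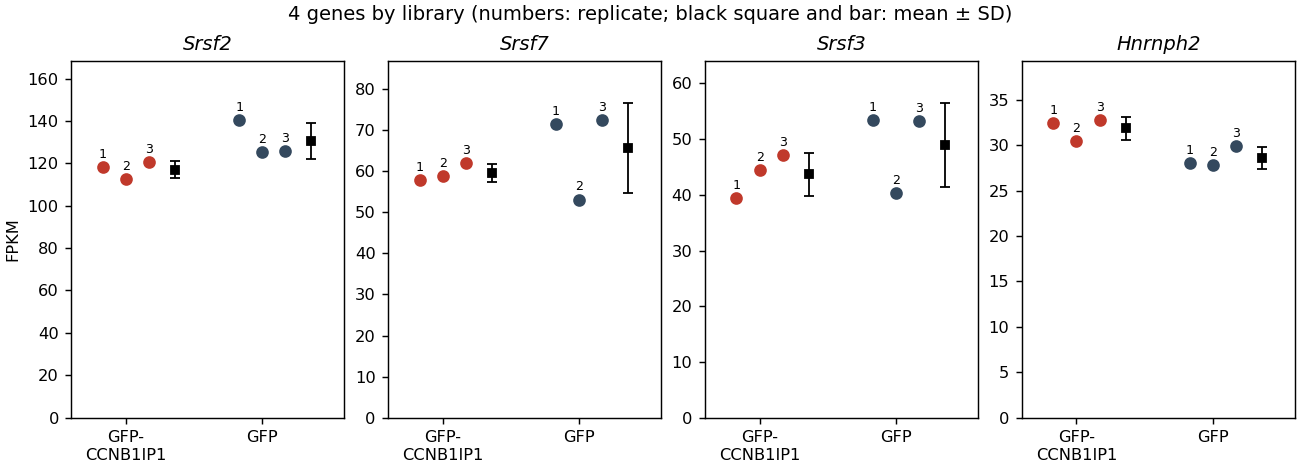
FPKM of Srsf2, Srsf7, Srsf3 and Hnrnph2 in each library, GFP-CCNB1IP1 left of GFP, with the replicate number above each point and the mean ± SD (n = 3) as a black square and bar beside them; each axis starts at 0. Replicate 2 of the GFP group is the low point for Srsf7, at 53.2 FPKM, and for Srsf3, at 40.3 FPKM.

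Srsf1, the founding member of the family, and its close relative Srsf9 differed in level. Srsf1 had 107, 111 and 103 FPKM in the GFP-CCNB1IP1 libraries, against 118, 110.0 and 114 FPKM in the GFP libraries. Srsf9 had 36.2, 36.1 and 32.0 FPKM with GFP-CCNB1IP1, against 35.8, 35.6 and 36.9 FPKM with GFP. The ratio of Srsf1 to Srsf9 lay between 2.95 and 3.30 in the 6 libraries. Srsf1 had a log2 fold change of -0.092 in limma (SE 0.0494, adjusted p = 0.527), and its groups met only where GFP-CCNB1IP1 replicate 2 passed GFP replicate 2. For Srsf9 the log2 fold change was -0.055, and 1 library, GFP-CCNB1IP1 replicate 3, was lower than the rest; without that library it was 0.0020.

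Srsf4, Srsf5 and Srsf6 encode closely related SR proteins that each carry a pair of RNA recognition motifs. Srsf5 had 96.0, 95.9 and 88.9 FPKM with GFP-CCNB1IP1, against 105, 95.7 and 101 FPKM with GFP. Srsf6 had 47.1, 47.4 and 48.1 FPKM with GFP-CCNB1IP1, against 51.6, 47.8 and 52.0 FPKM with GFP, and Srsf4 had 29.5, 27.7 and 26.9 FPKM with GFP-CCNB1IP1, against 30.1, 26.8 and 31.7 FPKM with GFP. The order Srsf5, Srsf6, Srsf4 held in every library, and the groups of each gene overlapped. The log2 fold changes were -0.100 for Srsf5, -0.083 for Srsf6 and -0.070 for Srsf4, with limma adjusted p of 0.528, 0.582 and 0.756. With 1 library left out, Srsf4 ran from -0.14 without GFP replicate 2 to -0.020 without GFP replicate 3, and Srsf5 from -0.13 without GFP replicate 2 to -0.064 without GFP-CCNB1IP1 replicate 3.

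Srsf10 encodes an unusual member that turns into a splicing repressor when it is dephosphorylated in mitosis or after heat shock, and Srsf12 encodes its closest relative. Srsf10 had 70.5, 71.9 and 71.0 FPKM in the GFP-CCNB1IP1 libraries, against 75.6, 71.4 and 71.8 FPKM in the GFP libraries, with a log2 fold change of -0.034 in limma (SE 0.0446, adjusted p = 0.813). Without GFP replicate 1, its highest library, that value was -0.0087. Srsf12 had 0.434, 0.871 and 0.748 FPKM with GFP-CCNB1IP1, against 0.469, 0.512 and 0.679 FPKM with GFP. The deposited intervals imply from 9.08 to 17.9 fragments behind those values of Srsf12, and its log2 fold change of 0.11 (SE 0.120, 95% interval from -0.19 to 0.41) comes from the fit of all genes above 0. Srsf10 was between 82.6 and 162 times Srsf12 in FPKM. Srsf11, a member reported to contact U2AF in human cells, had 116, 130.2 and 115 FPKM in the GFP-CCNB1IP1 libraries, against 113, 111 and 115 FPKM in the GFP libraries. It was high in GFP-CCNB1IP1 replicate 2, and its groups overlapped (limma, adjusted p = 0.615).

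The hnRNP family summed to 2290.1, 2258 and 2290.4 FPKM in the GFP-CCNB1IP1 libraries, against 2342, 2239.8 and 2263 FPKM in the GFP libraries. The ratio of the group means was 0.999 and the groups overlapped. The family took 0.479% of the summed FPKM of a library on average, and the SR family took 0.156%. Of the 20 members, 12 had a negative and 8 a positive log2 fold change, where 51.4% of all genes were positive, and the median was -0.018. Without GFP replicate 1 the median was 0.011 and 12 members were positive. That library had the highest value of the 6 for 14 of the 30 tested SR and hnRNP genes and the lowest for 0 of them. GFP replicate 2 was highest for 2 and lowest for 8. The other libraries were highest for 2 to 5 and lowest for 4 to 7.

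The A/B proteins, which package pre-mRNA and silence exons, held the top of the family. Hnrnpa1 (ENSMUSG00000046434.17, chromosome 15, 103148859 to 103155119) had 416, 389.6 and 406 FPKM in the GFP-CCNB1IP1 libraries, against 384, 400.4 and 381 FPKM in the GFP libraries. Hnrnpa2b1 (ENSMUSG00000004980.17, chromosome 6, 51437912 to 51446874) had 308, 325 and 317 FPKM in the GFP-CCNB1IP1 libraries, against 339.8, 313 and 319 FPKM in the GFP libraries. Hnrnpa1 was the higher in all 6 libraries, by 1.13 to 1.35 times, and the pair made up 17.4 and 14.0% of the family's FPKM. The groups overlapped for both, with log2 fold changes of 0.055 (SE 0.0439) and -0.030 (SE 0.0472).

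Their relatives were far lower. Hnrnpa3 had 28.3, 31.7 and 29.0 FPKM with GFP-CCNB1IP1, against 29.5, 27.5 and 26.6 FPKM with GFP, which put Hnrnpa1 at 12.3 to 14.7 times its level. Hnrnpa0, a binder of AU-rich elements, had 45.4, 45.9 and 45.2 FPKM with GFP-CCNB1IP1, against 49.6, 42.7 and 44.8 FPKM with GFP. The GFP-CCNB1IP1 libraries of Hnrnpa0, with a coefficient of variation of 0.768%, sat inside the range of the GFP libraries. Limma adjusted p was 0.656 for Hnrnpa3 and 0.994 for Hnrnpa0. The pseudogene rows Hnrnpa1l2-ps and Hnrnpa1l2-ps2 lay between 0.821 and 1.59 FPKM; how reads were divided among the copies is not known.

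The H/F proteins bind runs of G and act on exons flanked by them. Hnrnph2 (ENSMUSG00000045427.14, chromosome X, 133501928 to 133507809) was the one hnRNP gene whose groups did not overlap. It had 32.5, 30.4 and 32.7 FPKM in the GFP-CCNB1IP1 libraries, against 28.1, 27.9 and 30.0 FPKM in the GFP libraries. All 3 GFP-CCNB1IP1 libraries were higher, and the narrowest gap was that between GFP-CCNB1IP1 replicate 2 and GFP replicate 3. The means were 31.9 ± 1.25 and 28.6 ± 1.17 FPKM (SD, n = 3 each), a log2 fold change of 0.15 in limma (SE 0.0564, adjusted p = 0.380), with a 95% interval from 0.020 to 0.28. The adjusted p lay between 0.355 and 0.616 under every alternative tried.

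Hnrnph1, which encodes a protein closely similar to that of Hnrnph2, had 196, 206 and 224 FPKM in the GFP-CCNB1IP1 libraries, against 208, 201 and 204 FPKM in the GFP libraries. Its highest value, in GFP-CCNB1IP1 replicate 3, carries a deposited interval from 162 to 287 FPKM, where the interval of the next library, GFP replicate 1, runs from 200.3 to 216 FPKM. Hnrnph1 was 6.05 to 7.41 times Hnrnph2, and the groups overlapped in that ratio. Its log2 fold change was 0.029, and -0.024 without that library. How reads of sequence common to Hnrnph1 and Hnrnph2 were divided is not known. Hnrnpf, the third of the closely related set, had 95.2, 89.3 and 89.8 FPKM with GFP-CCNB1IP1, against 98.5, 90.2 and 90.6 FPKM with GFP, and Hnrnph3 had 23.5, 21.5 and 22.0 FPKM with GFP-CCNB1IP1, against 21.8, 21.3 and 21.0 FPKM with GFP. Both overlapped between groups; Hnrnph3 also overlaps the locus of Rufy2, which averaged 20.6 FPKM.

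Hnrnpk encodes a binder of C-rich RNA with KH domains and was the third highest hnRNP gene. It had 220.3, 202 and 217 FPKM in the GFP-CCNB1IP1 libraries, against 229, 212 and 226 FPKM in the GFP libraries, a log2 fold change of -0.061 in limma (SE 0.0526, adjusted p = 0.704). GFP-CCNB1IP1 replicate 2 was the lowest library and the groups overlapped. The value for Hnrnpk was -0.021 without that library and -0.095 without GFP replicate 2. Hnrnpl encodes a binder of CA repeats, and Hnrnpll its relative known from the splicing of Ptprc in lymphocytes. Hnrnpl had 183, 189 and 185 FPKM with GFP-CCNB1IP1, against 195, 187 and 189.6 FPKM with GFP, and Hnrnpll had 22.4, 22.2 and 22.6 FPKM with GFP-CCNB1IP1, against 23.0, 23.3 and 22.2 FPKM with GFP. The ratio of Hnrnpl to Hnrnpll lay between 8.03 and 8.53 in the 6 libraries.

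Hnrnpd encodes a binder of AU-rich elements that promotes mRNA decay, and Hnrnpdl and Hnrnpab encode its relatives. On chromosome 5, Hnrnpd and Hnrnpdl lie 54.6 kb apart in the tables. Hnrnpd had 56.6, 58.6 and 65.2 FPKM with GFP-CCNB1IP1, against 68.2, 56.2 and 62.5 FPKM with GFP. Hnrnpdl had 60.2, 65.4 and 63.7 FPKM with GFP-CCNB1IP1, against 67.9, 63.8 and 69.3 FPKM with GFP, and the ratio of Hnrnpd to Hnrnpdl lay between 0.882 and 1.02. Hnrnpab had 193, 186 and 167 FPKM with GFP-CCNB1IP1, against 184, 166 and 174 FPKM with GFP. For all 3 genes the groups overlapped; Hnrnpdl had the most negative log2 fold change of the hnRNP genes, -0.085 (SE 0.0541; limma, adjusted p = 0.604).

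Hnrnpu encodes a chromatin-bound RNA-binding protein of the nuclear scaffold, with Hnrnpul1 and Hnrnpul2 as its relatives. Hnrnpu had 163, 155 and 159 FPKM in the GFP-CCNB1IP1 libraries, against 165, 166 and 163 FPKM in the GFP libraries. GFP-CCNB1IP1 replicates 2 and 3 lay below every GFP library, and replicate 1 lay among them (limma, adjusted p = 0.694). Hnrnpul1 had 31.0, 30.0 and 29.7 FPKM with GFP-CCNB1IP1, against 33.4, 31.5 and 30.1 FPKM with GFP, and Hnrnpul2 had 29.8, 30.3 and 30.2 FPKM with GFP-CCNB1IP1, against 31.0, 29.6 and 30.4 FPKM with GFP. The levels of Hnrnpul1 and Hnrnpul2 were close, at a ratio of 0.985 to 1.08, while Hnrnpu was 4.93 to 5.39 times Hnrnpul1. The locus of Hnrnpu overlaps that of Cox20, at 18.2 FPKM.

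Of the remaining members, Hnrnpr, a relative of Syncrip that binds axonal mRNA in motor neurons, had 43.2, 39.1 and 42.7 FPKM with GFP-CCNB1IP1, against 45.6, 39.9 and 44.1 FPKM with GFP. Hnrnpc, which binds runs of U and hides cryptic exons, had 74.7, 68.0 and 71.6 FPKM with GFP-CCNB1IP1, against 69.1, 73.5 and 71.0 FPKM with GFP. Hnrnpm, a binder of GU-rich RNA whose locus overlaps that of Marchf2 at 17.2 FPKM, had 67.2, 73.9 and 69.9 FPKM with GFP-CCNB1IP1, against 72.4, 67.9 and 63.5 FPKM with GFP. The groups overlapped for each of the 3, and limma adjusted p was 0.827, 0.986 and 0.803.

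The order of the levels was clear in places and not in others. In the hnRNP family 9 of 19 neighbours in the order had ranges over the 6 libraries that did not meet, among them Hnrnpa1 above Hnrnpa2b1 above Hnrnpk. Hnrnpul1, Hnrnph2 and Hnrnpul2, with means of 30.9, 30.3 and 30.2 FPKM, had no order that held over the 6 libraries, each being the higher of its pair in 3 of 6. Hnrnph2 was above both others in all 3 GFP-CCNB1IP1 libraries and below both in all 3 GFP libraries. In GFP-CCNB1IP1 replicate 2 it was only just above Hnrnpul2, at 30.4 against 30.3 FPKM. In the SR family 5 of 10 neighbours were apart, and Srsf2, Srsf11 and Srsf1 overlapped at the top. The coefficient of variation between replicates of a group ran from 0.768 to 16.6% over the 30 tested members, with a median of 4.06% in the GFP-CCNB1IP1 libraries and 4.34% in the GFP libraries. Members lie on 16 chromosomes, and 4 of the 31 overlap a locus that averaged at least 10 FPKM.

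Other genes of the splicing apparatus were read from 6 lists. The lists hold 135 genes found in the tables beside the members, 123 of them at a mean of at least 1 FPKM, and 0 passed the test. Before adjustment, 9 genes were lower and 1 was higher at p under 0.05 in limma, where 5.77% of all genes were lower and 5.59% higher. The groups did not overlap for 11 lower and 4 higher genes, where 8.90% of all genes lay apart and lower and 8.70% apart and higher. The lists were chosen with earlier results of these data known.

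Kinases that phosphorylate the SR tail, with the SR importer Tnpo3, had 7 tested genes, 6 of them with a negative log2 fold change, a median of -0.098 and 0 passing. Clk1, a kinase that releases SR proteins from speckles, had 28.3, 26.8 and 26.9 FPKM in the GFP-CCNB1IP1 libraries, against 28.5, 32.6 and 30.3 FPKM in the GFP libraries, a log2 fold change of -0.15 in limma (SE 0.0625, adjusted p = 0.431). Srpk1, the cytoplasmic kinase needed for their import, had 58.8, 57.3 and 58.8 FPKM in the GFP-CCNB1IP1 libraries, against 60.1, 63.9 and 64.7 FPKM in the GFP libraries, a log2 fold change of -0.11 in limma (SE 0.0479, adjusted p = 0.455). For both genes the GFP-CCNB1IP1 libraries lay below every GFP library, for Clk1 by a narrow gap between GFP-CCNB1IP1 replicate 1 and GFP replicate 1. Clk2 and Clk3 overlapped between groups, with log2 fold changes of -0.11 and -0.098. With 1 library left out, Clk2 ran from -0.18 without GFP replicate 2 to -0.054 without GFP replicate 3, and Clk3 from -0.16 without GFP replicate 3 to -0.024 without GFP replicate 1.

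SR-related genes under other names had 16 tested genes, 12 of them with a negative log2 fold change, and a median of -0.055. Srrm2, a scaffold of nuclear speckles, had 214, 232 and 203 FPKM with GFP-CCNB1IP1, against 226, 244 and 246 FPKM with GFP, and its groups overlapped (limma, adjusted p = 0.435). Tra2b, an activator of exons with GA-rich enhancers, averaged 43.1 FPKM with GFP-CCNB1IP1 and 42.4 FPKM with GFP. Luc7l3, Pnn and Rsrc2 had log2 fold changes of -0.12, -0.086 and 0.089, with overlapping groups.

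hnRNPs under other names and their partners had 23 tested genes, 14 of them with a negative log2 fold change, and a median of -0.031. Ptbp1, the repressor of neuronal exons in cells that are not neurons, had 150.3, 136 and 141 FPKM with GFP-CCNB1IP1, against 158, 142 and 139 FPKM with GFP. Its neuronal counterpart Ptbp2 had 32.6, 42.1 and 30.3 FPKM with GFP-CCNB1IP1, against 32.6, 29.0 and 36.2 FPKM with GFP, with GFP-CCNB1IP1 replicate 2 the highest, and both overlapped between groups. Ptbp3 had 19.4, 18.8 and 19.1 FPKM with GFP-CCNB1IP1, against 16.1, 18.7 and 15.8 FPKM with GFP, apart between the groups (limma, adjusted p = 0.424). The gap was narrow, between GFP-CCNB1IP1 replicate 2 and GFP replicate 2. Cirbp, the gene of a cold-inducible RNA-binding protein, had 42.8, 42.9 and 38.1 FPKM with GFP-CCNB1IP1, against 44.0, 44.3 and 44.2 FPKM with GFP, apart between the groups (limma, adjusted p = 0.576). Rbmx, named after its values were seen, also lay apart and lower. It averaged 7.27 FPKM with GFP-CCNB1IP1 and 7.64 FPKM with GFP (limma, adjusted p = 0.765). Pcbp3 and Ilf2 overlapped, with log2 fold changes of -0.078 and -0.075.

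**Figure D4:**
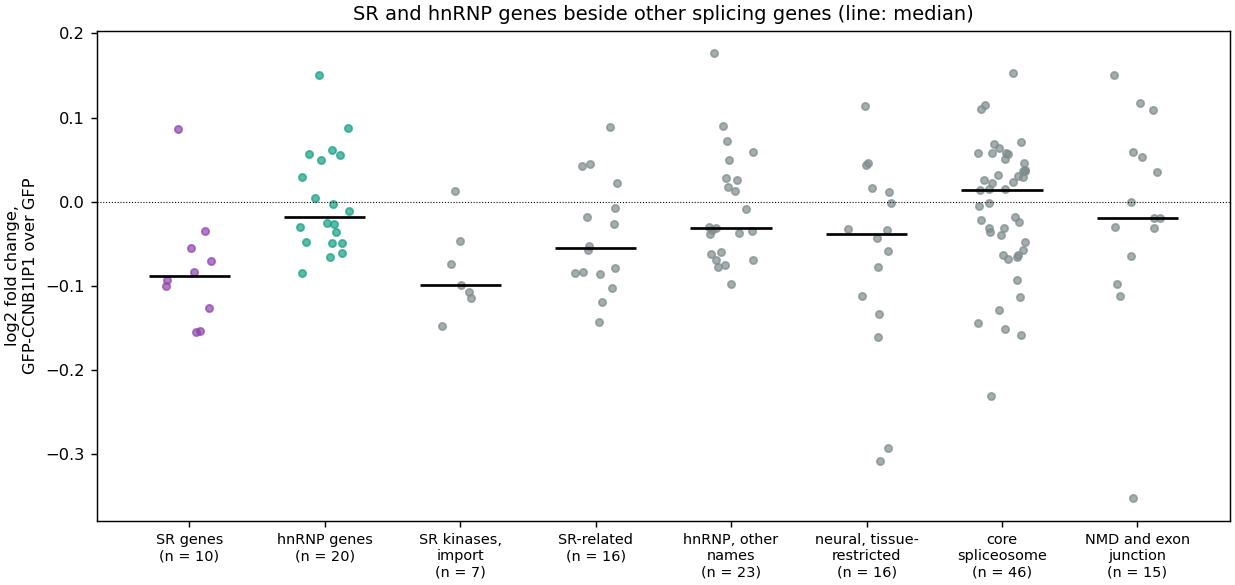
Log2 fold change on the log2(FPKM + 1) scale, GFP-CCNB1IP1 over GFP, of each tested gene in the SR and hnRNP families and in 6 lists of other splicing genes (NMD, nonsense-mediated decay), with the median as a line. The SR median is at -0.088, the hnRNP median at -0.018 and the core spliceosome median at 0.014; 0 of the genes shown passed the test.

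Neural and tissue-restricted splicing regulators had 25 genes in the tables, of which 9 fell below 1 FPKM, and 11 of the 16 tested had a negative log2 fold change. Nova1, a neuronal regulator, had 4.26, 4.93 and 5.20 FPKM with GFP-CCNB1IP1, against 6.13, 5.22 and 7.01 FPKM with GFP, a log2 fold change of -0.29 in limma (SE 0.115, adjusted p = 0.404), while its relative Nova2 had 15.0, 15.2 and 14.1 FPKM with GFP-CCNB1IP1, against 13.1, 13.7 and 13.9 FPKM with GFP, a log2 fold change of 0.11. The groups of both genes lay apart, in opposite directions, and neither passed. For Nova1 the gap was narrow, between 5.202 FPKM in GFP-CCNB1IP1 replicate 3 and 5.217 FPKM in GFP replicate 2. The deposited intervals imply 49.0 to 75.4 fragments behind the values of Nova1. Celf3 had 47.8, 43.7 and 36.5 FPKM with GFP-CCNB1IP1, against 46.1, 61.1 and 52.1 FPKM with GFP, with GFP replicate 2 the highest and overlapping groups, and Srrm3 had a log2 fold change of -0.13.

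The core spliceosome had 46 tested genes, 24 of them with a positive and 22 with a negative log2 fold change, and a median of 0.014. Sf3a1, a subunit of the particle that recognises branch points, had 16.9, 19.1 and 16.3 FPKM in the GFP-CCNB1IP1 libraries, against 20.1, 20.1 and 21.5 FPKM in the GFP libraries, a log2 fold change of -0.23 in limma (SE 0.0729, adjusted p = 0.321). All 3 GFP-CCNB1IP1 libraries lay below the GFP libraries, with replicate 2 the closest. The groups were also apart and lower for Sf3a3, its partner subunit, with a log2 fold change of -0.13, for Sart3, a recycling factor of snRNPs, with -0.16, and for Prpf8, the gene of the protein at the catalytic core, with -0.057, the last named after its values were seen. Of the 46 tested genes 4 thus lay apart and lower and 1 apart and higher. Over all genes those shares were 8.90% and 8.70%, so the 4 lower genes are near the share of all genes. Snrnp70, the gene of a protein of the U1 snRNP, averaged 288 ± 9.14 and 319 ± 24.1 FPKM (SD, n = 3 each) in the GFP-CCNB1IP1 and GFP libraries, which overlapped. Of the subunits of U2AF, which binds the splice acceptor, U2af1 had 97.9, 101 and 99.3 FPKM with GFP-CCNB1IP1, against 97.7, 93.4 and 95.4 FPKM with GFP, apart between the groups (limma, adjusted p = 0.649). The large subunit gene U2af2 averaged 62.0 FPKM with GFP-CCNB1IP1 and 62.8 FPKM with GFP.

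Genes of nonsense-mediated decay and of the exon junction complex had 15 tested genes, 9 of them with a negative log2 fold change, and a median of -0.019. Smg6, the endonuclease gene of the pathway, had 10.4, 8.99 and 11.0 FPKM in the GFP-CCNB1IP1 libraries, against 11.2, 14.2 and 14.4 FPKM in the GFP libraries, a log2 fold change of -0.35 in limma (SE 0.113, adjusted p = 0.323). Its groups did not overlap, although GFP replicate 1 lay only just above the highest GFP-CCNB1IP1 library. Smg5 had 36.8, 36.5 and 35.0 FPKM with GFP-CCNB1IP1, against 38.8, 39.5 and 39.0 FPKM with GFP (limma, adjusted p = 0.429). The groups of Smg5 also lay apart. Upf3a had 22.8, 22.9 and 23.0 FPKM with GFP-CCNB1IP1, against 19.6, 21.0 and 22.6 FPKM with GFP, apart with GFP-CCNB1IP1 higher (limma, adjusted p = 0.527). Upf1, the gene of the central helicase, averaged 13.1 FPKM with GFP-CCNB1IP1 and 13.3 FPKM with GFP, and Magohb had a log2 fold change of 0.15 with overlapping groups.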

How the data were processed

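Polyadenylated RNA was captured on oligo-dT beads, fragmented, primed at random and sequenced, per the labels' protocols. The submitters' processing notes name HISAT2 and Cufflinks without versions. The values are FPKM per gene, deposited with lower and upper interval bounds in 1 table per library, per the file headers. Each table had 53537 rows; rows sharing an identifier (38 identifiers) were summed. Positions are given from 1, the tables' starts being taken as 0-based.

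Genes with a mean of at least 1 FPKM over the 6 libraries (13231) were tested on log2(FPKM + 1) in limma 3.58.1 (R 4.3.3; empirical Bayes with an intensity trend, without a replicate block), with Benjamini-Hochberg adjustment over all of them. Fold changes on this scale are too small for low genes. The estimates of fold change from this fit were checked on simulated data, and no result rests on that check. With 3 libraries a side, the smallest p of a two-sided exact permutation test is 0.1, and none was run. Implied fragments are the square of FPKM over its standard error, with the upper bound taken as 2 standard errors above; they are estimates, and the intervals cover counting and assignment error only.

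Members and lists were chosen with earlier results of these data known. All members are described, and of each list the 4 genes with the smallest p plus Srpk1, Clk1, Tra2b, Ptbp1, Ptbp2, U2af1, U2af2 and Upf1. Rbmx and Prpf8 were named besides, after their values were seen. Of 138 listed symbols, 2 are older names of members and Qki was not found by that name. Alternatives were other pseudocounts (0.1 and 5), filters (none, 5 FPKM), median-of-ratios scaling, quantile normalization, TPM, a replicate block, no trend, a robust prior and each library left out. No mouse sequence was used here, so none is printed.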

Additional observations from a re-analysis of the deposited data

How the results depend on the processing

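The number of SR and hnRNP genes that passed was 0 under every alternative, and the lowest adjusted p of any of them was 0.206 (limma, Srsf7 without GFP replicate 2). Of 480 recomputed log2 fold changes of the 30 tested members, 469 kept their sign and 11, in 8 genes, changed it. By rescaling, Hnrnpc was -0.0067 in TPM. The other changes of sign came with 1 library left out. Over those 6 settings the log2 fold change ran from -0.054 to 0.0056 for Hnrnpa2b1, -0.054 to 0.016 for Hnrnpf, -0.12 to 0.018 for Hnrnpd and -0.028 to 0.0049 for Hnrnpul2, each positive without GFP replicate 1. It ran from -0.024 to 0.072 for Hnrnph1 and -0.085 to 0.0020 for Srsf9, which changed sign without GFP-CCNB1IP1 replicate 3. Hnrnpc ran from -0.027 to 0.039 and Hnrnpa0 from -0.050 to 0.056. Of the 30 genes named from the other lists, Rbmx and Prpf8 not counted, 5 changed sign. Tra2b ran from -0.030 to 0.070, Ptbp1 from -0.079 to 0.020 and Ptbp2 from -0.046 to 0.18. U2af2 ran from -0.055 to 0.015 and Upf1 from -0.067 to 0.030. The cause was not tested. Leaving out 1 library moved 27 of the 30 members by over 1.5 times in at least 1 setting, all but Srsf1, Srsf6 and Hnrnph2, and likewise 18 of those 30 other genes.

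Leaving out each library in turn gave SR medians from -0.13 to -0.056 and hnRNP medians from -0.035 to 0.011, with 1 to 2 SR and 7 to 12 hnRNP members positive. Over all genes tested, the count passing was 1 higher and 0 lower. It was 0 to 2 higher and 0 to 2 lower with a library left out, 1 lower in TPM, and 0 higher with a pseudocount of 5, with no filter, without the trend and with the replicate block. Same-numbered libraries did not deviate together (correlations across genes of 0.023, -0.0093 and -0.011), so the numbers were not taken as pairs; with the block 0 members passed, as without it. Depth limits Srsf12 most, and single libraries decide the sign of 8 members.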
